A study of Homo sapiens with 12 samples.

Results

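GDF15 (growth differentiation factor 15, ENSG00000130513) is 1 gene of the 58735 in the deposited expression table, and it was followed here through all 12 RNA sequencing libraries of the series by its gene name. It was chosen because its level was already known to differ between cells given diallyl trisulfide (DATS) and cells given the solvent DMSO, so its own values are a description and carry no test. GDF15 averaged 24.2 ± 9.94 FPKM in MCF-10A cells given DATS and 6.29 ± 0.642 FPKM in MCF-10A cells given DMSO, and 40.9 ± 24.5 FPKM in SK-BR-3 cells given DATS against 8.98 ± 4.74 FPKM in SK-BR-3 cells given DMSO (mean ± SD, n = 3 libraries each). The authors' table is in FPKM, counted fragments per length of gene, scaled to an effective library size. That size was 0.886 (SK-BR-3 DATS replicate 1) to 1.07 (MCF-10A DMSO replicate 2) times the reads in genes.

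GDF15 encodes a divergent member of the TGF-beta superfamily that cells secrete under stress. It is made as a precursor that furin-type convertases cut, and the circulating hormone acts on a hindbrain receptor, GFRAL with the kinase RET, to reduce food intake. Its transcription is known to be raised by ATF4 and CHOP (encoded by DDIT3) in the integrated stress response, by EGR1, by NRF2 (encoded by NFE2L2) and by the lysosomal regulators TFEB and TFE3, and it is widely used as a readout of such stress in cultured cells and in plasma.

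The groups were SK-BR-3 cells given 20 µM DATS for 16 h, SK-BR-3 cells given 0.07% DMSO, MCF-10A cells given 20 µM DATS for 16 h, and MCF-10A cells given 0.07% DMSO, with 3 libraries in each. MCF-10A cells come from breast epithelium, grow without limit but form no tumours; SK-BR-3 cells come from a breast carcinoma and have amplified ERBB2, and DATS is an organosulfur compound of garlic. Each line stands for its tissue as 1 culture, and per the labels each kind of sample was prepared 3 times independently, so the spread between libraries is that between preparations of 1 line. Libraries held 15295046 to 18407213 reads in genes. The summed level of 8 SK-BR-3 identity genes, ERBB2 and its amplicon neighbours among them, was 5214 to 6633 FPKM with DATS and 4339 to 6327 FPKM with DMSO in SK-BR-3, and 191.9 to 224.8 FPKM with DATS and 118 to 136 FPKM with DMSO in MCF-10A. The summed level of 6 leukocyte markers did not exceed 6.79 FPKM in any library, and that of 6 fibroblast markers did not exceed 9.63 FPKM. Among 5 endothelial markers, CDH5 was at 25.3 ± 4.42 FPKM in SK-BR-3 with DATS and 11.8 ± 2.88 FPKM with DMSO, while the other 4 were under 1 FPKM throughout; its part in the results was not tested. In bulk libraries, fewer cells that make a transcript and less of it per cell cannot be told apart.

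GDF15 lies on chromosome 19 from 18374731 to 18389176 on the forward strand (GRCh38, GENCODE 29). Its main transcript, GDF15-201, has 2 coding exons from 18386158 to 18389176 and is 1200 bases long. The other 4 annotated transcripts are shorter, and 3 of them start far upstream of it, from 18374731, 18374752 and 18382170. FPKM was computed on the merged exons of all 5, 2087 bases, which is 1.74 times the length of GDF15-201, so a level per length of GDF15-201 alone would be higher by that factor in every library. The ratios between libraries do not change with it. The stretch of the core promoter just before the start of GDF15-201 is shown because the main coding transcript begins there; it spans chr19:18386123-18386152 on the forward strand (RefSeq, GRCh38.p14), 35 to 6 bases upstream, and the capitals mark a TATA box.
GDF15 core promoter: ggggacTATAAAggccggtccggcagcatc
A TATAAA on either strand was present in 10.7% of the 35116 RefSeq promoter windows of 250 bases. The same window of GDF15 also held 2 copies of the GC box GGGCGG, at 119 to 114 and at 70 to 65 bases upstream, which 42.6% of the windows hold at least once. No match to GCGNGGGNG (EGR1, 17% of windows), TGATGNAA (ATF4, 3.14%), TTGCNNAA (C/EBP, 9.05%), TGACNNNGC (NRF2, 10.9%), CACGTG (TFEB and TFE3, 6.34%), TGANTCA (AP-1, 6.57%) or TGACGTCA (cAMP response element, 1.65%) was found in it, and these letters may still occur elsewhere at the gene.

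**Figure D1:**
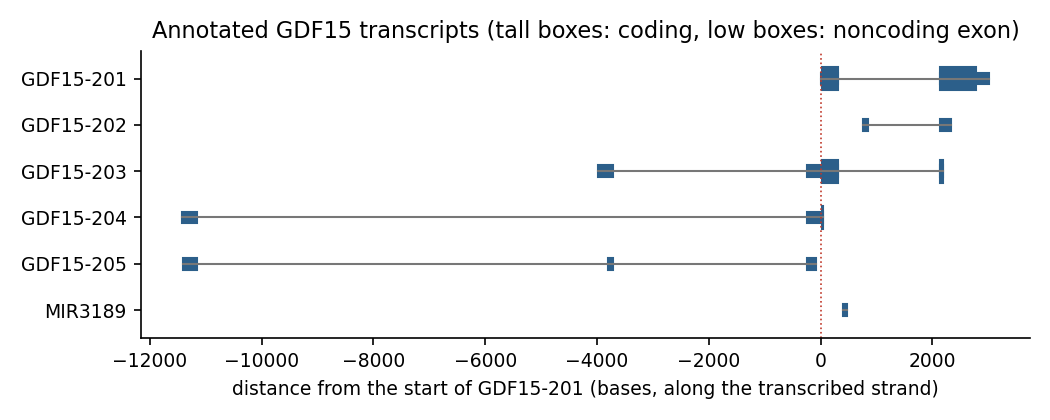
Exons of the annotated GDF15 transcripts and of MIR3189 as distance in bases from the start of GDF15-201 (dotted line), with coding parts as tall boxes and noncoding exons as low boxes. GDF15-203, GDF15-204 and GDF15-205 begin well upstream, and MIR3189 lies in the intron of GDF15-201.

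The only other annotated gene within GDF15 is MIR3189, a microRNA in the intron of GDF15-201. Its mature arms are shown because reads of unspliced GDF15 RNA could be counted to it, and the capitals mark the seed, bases 2 to 8 (RefSeq, GRCh38.p14; chr19:18386570-18386594 and chr19:18386607-18386627, forward strand).
hsa-miR-3189-5p: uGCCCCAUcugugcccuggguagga
hsa-miR-3189-3p: cCCUUGGGucugaugggguag
The MIR3189 hairpin had 5, 3 and 1 reads in SK-BR-3 with DATS and 3, 1 and 0 reads in SK-BR-3 with DMSO. It had 0 reads in each MCF-10A library with DATS and 2, 0 and 0 reads in those with DMSO. These libraries of total RNA were not made for microRNAs, and so few reads say nothing on either arm.

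In MCF-10A cells GDF15 was at 29.1, 30.6 and 12.7 FPKM in preparations 1, 2 and 3 with DATS, from 1015, 1102 and 438 reads. With DMSO it was at 5.87, 5.97 and 7.03 FPKM, from 216, 246 and 262 reads. Every DATS library was above every DMSO library, and the DATS library of preparation 3 was by far the closest to them. Its 95% Poisson interval of 11.6 to 14 FPKM stays clear of both the highest DMSO interval, 6.2 to 7.93 FPKM, and the lowest interval of the other DATS libraries, 27.4 to 31 FPKM. These intervals cover counting error only.

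In SK-BR-3 cells GDF15 was at 68.4, 32.8 and 21.4 FPKM in preparations 1, 2 and 3 with DATS, from 2270, 1105 and 739 reads. With DMSO it was at 14.3, 7.60 and 5.08 FPKM, from 447, 260 and 172 reads. Here too the groups did not overlap. The preparation with the highest level under DATS was also the highest under DMSO, and the lowest was the lowest under both. The highest DATS library was 3.20 times the lowest, and the highest DMSO library 2.81 times the lowest, more than counting error gives.

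**Figure D2:**
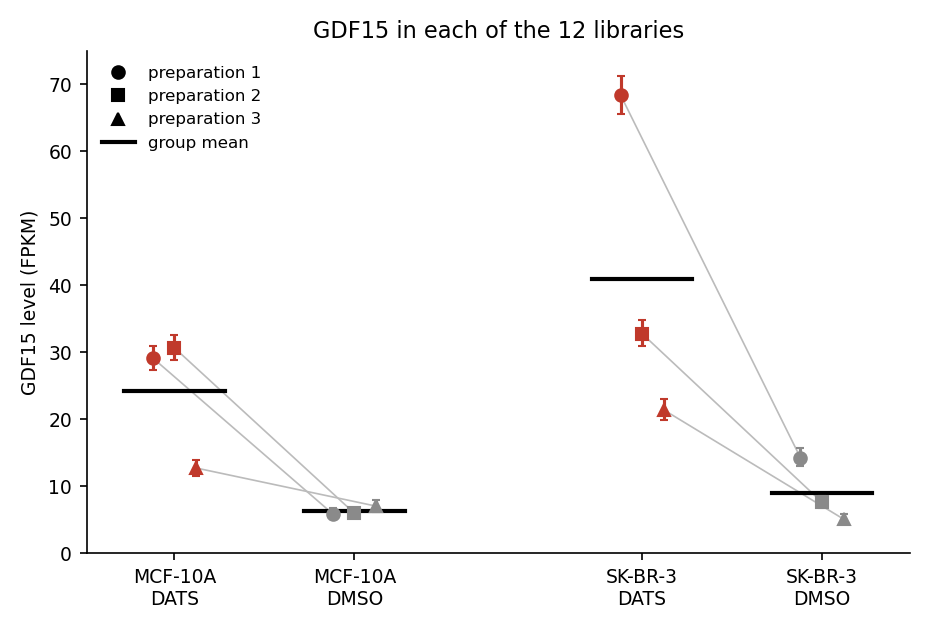
GDF15 level (FPKM) in each library by group, with DATS in red and DMSO in grey, 95% Poisson intervals, thin lines joining the libraries of 1 preparation and bars at the group means. Within each line all DATS libraries lie above all DMSO libraries, and MCF-10A preparation 3 shows the smallest gap, 12.7 against 7.03 FPKM.

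Set against the DMSO library of the same preparation, the SK-BR-3 level with DATS was 4.80, 4.31 and 4.21 times as high in preparations 1, 2 and 3. On the log2(FPKM + 1) scale these differences had an SD of 0.16, near the median of 0.15 for the same SD over all 13194 genes tested. In MCF-10A the ratios were 4.96, 5.14 and 1.81, with an SD of 0.80 on the log2 scale against a median of 0.12 over the tested genes. Only 204 genes had a wider spread of preparation differences in MCF-10A than GDF15. Preparations 1 and 2 of MCF-10A thus gave ratios like those of all SK-BR-3 preparations, and preparation 3 did not.

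MCF-10A preparation 3 stood apart for other genes as well. Among the 549 other genes called higher with DATS in MCF-10A, the median log2 difference was 0.67, 0.67 and 0.38 in preparations 1, 2 and 3; these genes were picked with the same libraries, so the values are a description. The share of reads from ribosomal RNA in preparation 3 was 0.261% with DATS and 0.257% with DMSO, whereas it was 0.365% with DATS and 0.249% with DMSO in preparation 1 and 0.386% with DATS and 0.243% with DMSO in preparation 2. In SK-BR-3 the share was 0.427%, 0.557% and 0.454% with DATS and 0.344%, 0.346% and 0.410% with DMSO. The part of this share in the GDF15 differences was not tested.

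Averaged over preparations, the log2(FPKM + 1) difference between DATS and DMSO was 1.70 ± 0.44 (SE) in MCF-10A and 2.01 ± 0.44 (SE) in SK-BR-3, from limma with 1 spread over all 12 libraries. By this difference GDF15 was 16th of 13194 genes in MCF-10A and 2nd in SK-BR-3. Taken preparation by preparation it was 20th, 16th and 124th in MCF-10A and 5th, 13th and 8th in SK-BR-3. The log2 fold change of the authors' deposited table is 1.91 for MCF-10A and 2.15 for SK-BR-3. By that fold change GDF15 was only 164th of the 3477 genes listed for MCF-10A and 109th of the 4065 listed for SK-BR-3. The log2(FPKM + 1) scale shrinks changes of low genes, and the filter at 1 FPKM leaves many of these genes out. The authors' list holds only genes at an unadjusted p under 0.05. The part of each in the difference of ranks was not tested. Without preparation 3 of MCF-10A the difference there was 2.16.

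The response was 0.32 ± 0.62 (SE) larger on the log2 scale in SK-BR-3 than in MCF-10A, less than its standard error. This difference changed sign when single libraries were left out: it was -0.07 without MCF-10A DATS replicate 3, -0.13 without SK-BR-3 DATS replicate 1, and -0.15 without both libraries of MCF-10A preparation 3. Neither its direction nor its absence can be read from these libraries.

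Ordered by mean level, the groups ran SK-BR-3 with DATS, MCF-10A with DATS, SK-BR-3 with DMSO and MCF-10A with DMSO, and each group overlapped its neighbours in that order. SK-BR-3 cells with DATS spanned 21.4 to 68.4 FPKM and MCF-10A cells with DATS 12.7 to 30.6 FPKM. The lowest MCF-10A DATS library, 12.7 FPKM, was under the highest SK-BR-3 DMSO library, 14.3 FPKM. With DMSO the log2 difference between SK-BR-3 and MCF-10A was 0.35 ± 0.44 (SE). The SK-BR-3 DMSO libraries, at 14.3, 7.60 and 5.08 FPKM, lay on both sides of the MCF-10A DMSO libraries, at 5.87, 5.97 and 7.03 FPKM. Without SK-BR-3 DMSO replicate 1 the difference was -0.01. Of all tested genes, 36.6% were called higher and 35.5% lower in SK-BR-3 than in MCF-10A with DMSO. GDF15 was given no test, so it cannot be set against these shares. It varied more within groups than most genes, with a pooled SD of 0.63 on the log2 scale against a median of 0.14, exceeded by 205 of the 13194 genes.

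Tests were made on the known regulators and on other context genes, which were listed with earlier results of these data known. They use limma on log2(FPKM + 1), fitted to the 13194 genes that reached 1 FPKM in 3 or more libraries, and calls were made at an adjusted p (Benjamini-Hochberg) under 0.05. "Rose" and "fell" are used of called genes. In MCF-10A 4.17% of the tested genes were called higher and 2.11% lower with DATS; in SK-BR-3 these shares were 11.3% and 6.87%. Replicate numbers paired the libraries, so the adjusted p with the preparation as a block is given for many named genes whose call it changes within a line. The block raised the calls among context genes from 22 to 50 in MCF-10A and from 35 to 57 in SK-BR-3. The shares of all genes given here are from limma without the block. List counts with the block, by edgeR or DESeq2, or at an unadjusted p have no such share beside them and are a description. Limma called 22 of the 160 context genes tested in MCF-10A, edgeR on recovered reads 21 and DESeq2 34. When the 6 MCF-10A libraries were fitted without SK-BR-3, limma called 0 of them, with 42 higher and 15 lower at an unadjusted p under 0.05, so the MCF-10A calls below also rest on the spread of the SK-BR-3 libraries.

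Of 10 regulators, TFE3 alone was called in MCF-10A, and TFE3 and NFE2L2 in SK-BR-3. TFE3, which with TFEB drives lysosomal genes, was at 19.1, 21.5 and 21 FPKM with DATS against 13.5, 14.5 and 18.6 FPKM with DMSO in MCF-10A (log2 change 0.39 ± 0.10, adjusted p = 0.0454). In SK-BR-3 TFE3 was at 15.4, 15.1 and 15.9 FPKM with DATS against 12.3, 11.5 and 11.3 FPKM with DMSO (0.38 ± 0.10, adjusted p = 0.0252). Its groups were apart in both lines, but the MCF-10A call was lost in 10 of the 12 fits that left out 1 library (adjusted p up to 0.195), and the SK-BR-3 call in 4 of them (up to 0.0825). NFE2L2, which encodes NRF2, rose in SK-BR-3 to 14.5, 13.2 and 14.3 FPKM with DATS, against 8.27, 8.89 and 8.8 FPKM with DMSO (0.64 ± 0.09, adjusted p = 0.00116). In MCF-10A NFE2L2 averaged 18.5 ± 1.8 FPKM with DATS and 16.6 ± 1.41 FPKM with DMSO, which was not called, and the response was larger in SK-BR-3 by 0.48 ± 0.12 (adjusted p = 0.0493). This call on the NFE2L2 responses was lost in 11 of the 12 fits that left out 1 library (adjusted p up to 0.128), and edgeR did not make it (adjusted p = 0.0587).

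The transcripts of the integrated stress response factors did not pass the test. ATF4 averaged 126 ± 6.94 FPKM with DATS and 127 ± 5.6 FPKM with DMSO in MCF-10A, and 158 ± 17.8 FPKM with DATS and 151 ± 17.5 FPKM with DMSO in SK-BR-3. ATF4 is controlled largely by its translation, which these libraries do not measure. DDIT3 differed by 0.31 ± 0.19 in MCF-10A and 0.01 ± 0.19 in SK-BR-3 (adjusted p = 0.355 and 0.998), and ATF3, a stress factor of the same family as ATF4, by 0.55 ± 0.28 and 0.35 ± 0.28 (adjusted p = 0.263 and 0.423).

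EGR1, an immediate early factor known to raise GDF15, was lower with DATS in each of the 6 preparations. In MCF-10A it was at 58.1, 46.8 and 27.2 FPKM with DATS against 133, 93.3 and 57.3 FPKM with DMSO, and in SK-BR-3 at 34.9, 62.3 and 13.5 FPKM with DATS against 68.7, 114 and 18.8 FPKM with DMSO. The groups overlapped in both lines, and without the block EGR1 was not called (-1.07 ± 0.64, adjusted p = 0.349, and -0.76 ± 0.64, adjusted p = 0.458). With the preparation as a block it was called lower in both (adjusted p = 0.00687 and 0.00269). Levels were read at 16 h only, and the part of EGR1 in the GDF15 differences was not tested.

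CEBPB, a leucine zipper factor that pairs with ATF4 and CHOP, was at 109, 111 and 94.8 FPKM with DATS against 74.7, 76.2 and 86.2 FPKM with DMSO in MCF-10A. In SK-BR-3 it was at 190.0, 159 and 139 FPKM with DATS against 146, 118 and 110.3 FPKM with DMSO. The groups did not overlap in MCF-10A and did in SK-BR-3, and CEBPB was called only with the block (0.41 ± 0.13 in MCF-10A, adjusted p = 0.0906 without and 0.0253 with the block; 0.38 ± 0.13 in SK-BR-3, adjusted p = 0.0708 and 0.0196). RELA, an NF-kB subunit, differed by 0.39 ± 0.11 in MCF-10A (adjusted p = 0.0564, 0.0378 with the block) and by 0.26 ± 0.11 in SK-BR-3 (adjusted p = 0.13). SP1, which binds GC boxes, differed by 0.07 ± 0.11 in MCF-10A and by -0.25 ± 0.11 in SK-BR-3 (adjusted p = 0.774 and 0.156; 0.0443 with the block in SK-BR-3). TFEB differed by 0.04 ± 0.10 in MCF-10A and -0.18 ± 0.10 in SK-BR-3 (adjusted p = 0.877 and 0.26). The median of the 10 regulators was 0.23 in MCF-10A and 0.16 in SK-BR-3, against 0.02 and 0.03 over all tested genes.

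**Figure D3:**
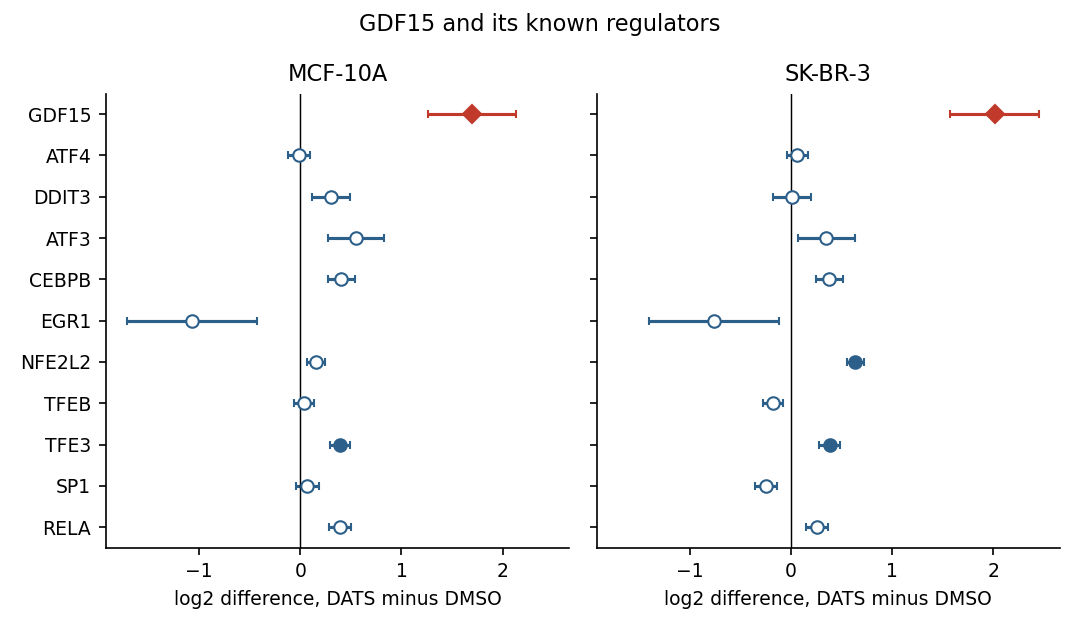
Log2(FPKM + 1) difference between DATS and DMSO with its SE for GDF15 (red diamond, described without a test) and 10 known regulators (circles, filled where called by limma without the block), in MCF-10A and SK-BR-3. GDF15 sits at 1.70 and 2.01, and the regulators between -1.07 and 0.64.

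Genes of growth arrest and of the damage response were compared with GDF15 next. CDKN1A, the cell cycle inhibitor p21, was at 252, 263 and 264 FPKM with DATS against 88.4, 92.5 and 176 FPKM with DMSO in MCF-10A (1.19 ± 0.25, adjusted p = 0.0234; up to 0.117 when 1 library was left out, with the call lost for 5 of 12). In MCF-10A the CDKN1A libraries of preparation 3 differed through a high DMSO level, those of GDF15 through a low DATS level. In SK-BR-3 CDKN1A averaged 18.6 ± 6.2 FPKM with DATS and 13.4 ± 1.65 FPKM with DMSO (adjusted p = 0.301), and the difference of its responses, -0.79 ± 0.36, was not called (adjusted p = 0.235). BBC3, the death gene PUMA, differed by 0.63 ± 0.25 in MCF-10A (adjusted p = 0.147), and GADD45A, a DNA damage response gene, by 0.63 ± 0.23 (adjusted p = 0.124, 0.0382 with the block). PLK3, a stress kinase, differed by 0.66 ± 0.19 (adjusted p = 0.0618), and FDXR, a mitochondrial reductase, fell in SK-BR-3 by 0.58 ± 0.14 (adjusted p = 0.0166). PHLDA3, an AKT inhibitor, differed by 0.36 ± 0.16 in MCF-10A and 0.35 ± 0.16 in SK-BR-3 (adjusted p = 0.205 and 0.158; 0.0387 and 0.0277 with the block), and the kinase gene PLK2 was not called.

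Of 33 tested ATF4 targets 0 rose and 0 fell in MCF-10A (7 and 4 with the block), and 4 rose and 3 fell in SK-BR-3 (5 and 6 with the block), with medians of -0.07 and 0.02. In MCF-10A 6 of them were higher and 5 lower at an unadjusted p under 0.05. There edgeR called 1 lower, and DESeq2 4 higher and 2 lower. In SK-BR-3 edgeR called 2 higher and 6 lower, and DESeq2 4 higher and 7 lower, so the balance of directions depends on the tool. Those that rose by limma in SK-BR-3 included SLC7A11, the cystine transporter that NRF2 also drives (0.68 ± 0.14, adjusted p = 0.00779), and its partner SLC3A2 (0.48 ± 0.13, adjusted p = 0.0239). The 3 that fell there had smaller absolute changes than these and are not named. In MCF-10A SLC3A2 was lower with DATS, by a difference of -0.29 ± 0.13 (adjusted p = 0.193, 0.0177 with the block). CHAC1, a glutathione-degrading enzyme often read as a sign of ATF4, was at 1.72, 2.23 and 1.09 FPKM with DATS against 0.551, 0.763 and 0.87 FPKM with DMSO in MCF-10A (adjusted p = 0.244, 0.0445 with the block). In SK-BR-3 CHAC1 was at 8.83, 3.4 and 3.29 FPKM with DATS against 4.66, 2.76 and 2.37 FPKM with DMSO (adjusted p = 0.323). NUPR1, a stress-induced chromatin protein, differed by 0.58 ± 0.20 in MCF-10A (adjusted p = 0.107, 0.0275 with the block) and 0.32 ± 0.20 in SK-BR-3 (adjusted p = 0.296). PHGDH, which starts serine synthesis, was lower in MCF-10A by a difference of -0.55 ± 0.15 (adjusted p = 0.0588, 0.016 with the block). HERPUD1, of the endoplasmic reticulum, differed by 0.46 ± 0.17 in MCF-10A (adjusted p = 0.123, 0.0155 with the block). DDIT4, an inhibitor of mTORC1, differed by -0.74 ± 0.29 in SK-BR-3 (adjusted p = 0.0984, 0.00691 with the block). Of 9 genes for eIF2 kinases, phosphatase subunits and their mitochondrial relay, 0 were called in MCF-10A by limma, edgeR or DESeq2 (0 at an unadjusted p under 0.05), where PPP1R15A, the phosphatase subunit GADD34, was called with the block (0.55 ± 0.30, adjusted p = 0.285 and 0.0258), and EIF2AK2, the kinase PKR, rose in SK-BR-3 (0.38 ± 0.09, adjusted p = 0.0187). EIF2S1, which encodes the eIF2 subunit that is phosphorylated, differed by 0.19 ± 0.09 in SK-BR-3 (adjusted p = 0.162, 0.0389 with the block), and PPP1R15B, the constitutive phosphatase subunit, and OMA1, a mitochondrial protease, were not called in either line.

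Among the NRF2 targets, in MCF-10A 8 of 20 rose and 0 fell (11 and 0 with the block) with a median of 0.29, and in SK-BR-3 13 of 20 rose and 0 fell (16 and 0 with the block) with a median of 0.66. HMOX1, heme oxygenase, was at 5.35, 6.27 and 5.72 FPKM with DATS against 1.20, 2.48 and 3.58 FPKM with DMSO in MCF-10A (1.05 ± 0.25, adjusted p = 0.034), and at 56.4, 35.1 and 34.9 FPKM with DATS against 17, 13.9 and 11.6 FPKM with DMSO in SK-BR-3 (1.48 ± 0.25, adjusted p = 0.00334). FTL, the ferritin light chain, rose by 1.19 ± 0.17 in MCF-10A and 0.94 ± 0.17 in SK-BR-3 (adjusted p = 0.0057 and 0.0043). The heavy chain FTH1 rose by 0.67 ± 0.15 and 1.5 ± 0.15 (adjusted p = 0.0288 and 0.000279); ferritin pseudogenes can share reads with both. OSGIN1, an oxidative stress growth inhibitor, rose by 0.62 ± 0.15 and 0.56 ± 0.15 (adjusted p = 0.0329 and 0.0236). By preparation the list's median in MCF-10A was 0.26, 0.32 and 0.30, and single members differed from it. The HMOX1 gap between DATS and DMSO there was smallest in preparation 3, 5.72 against 3.58 FPKM. The part of NRF2 in the GDF15 differences was not tested. TXNRD1, thioredoxin reductase, and GCLM, a subunit of the glutathione-making ligase, had larger responses in SK-BR-3 by 0.79 ± 0.16 and 1.02 ± 0.12 (adjusted p = 0.0265 and 0.00371). The GCLM call held in all 12 fits that left out 1 library, and the TXNRD1 call was lost in 7 (adjusted p up to 0.0767). Over the list, 5 of 20 responses were called larger there and 0 smaller, against 2.48% and 1.81% of all genes without the block. With the block 8 were called larger and 0 smaller.

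Of 17 tested lysosome and autophagy targets of TFEB and TFE3, 2 rose in MCF-10A (5 with the block) and 7 in SK-BR-3 (11 with the block), and 0 fell in either. SQSTM1, the autophagy adaptor p62, which NRF2 also drives, was at 42.6, 48.1 and 46.4 FPKM with DATS against 22.9, 24.5 and 27.2 FPKM with DMSO in MCF-10A (0.85 ± 0.21, adjusted p = 0.0369). In SK-BR-3 it was at 151, 88 and 88.2 FPKM with DATS against 63.9, 42.1 and 41.2 FPKM with DMSO (1.12 ± 0.21, adjusted p = 0.0054). As with GDF15, preparation 1 was the highest of SK-BR-3 under both agents. WIPI1, which acts in autophagosome formation, rose by 0.62 ± 0.10 and 0.54 ± 0.10 (adjusted p = 0.00889 and 0.00518). GPNMB, a lysosomal glycoprotein, rose in SK-BR-3 by 0.61 ± 0.13 (adjusted p = 0.012) and was at most 0.139 FPKM in MCF-10A. CTSB, a lysosomal protease, differed by 0.38 ± 0.13 in MCF-10A (adjusted p = 0.111, 0.0128 with the block).

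Among 12 tested immediate early genes, EGR1 included, IER3 rose in MCF-10A (0.98 ± 0.24, adjusted p = 0.0373) and 0 were called in SK-BR-3 by limma without the block (1 higher and 2 lower at an unadjusted p under 0.05; edgeR called 1 lower, and DESeq2 1 higher and 2 lower). With the block 2 rose and 2 fell in MCF-10A, and 1 rose and 4 fell in SK-BR-3, EGR1 among those that fell in each. FOS was at 7.12, 7.12 and 4.42 FPKM with DATS against 17.4, 9.79 and 9.16 FPKM with DMSO in MCF-10A (adjusted p = 0.489, 0.0217 with the block). ZFP36, which destabilises cytokine transcripts, averaged 12.3 ± 4.21 FPKM with DATS and 22.9 ± 9.29 FPKM with DMSO in SK-BR-3 (adjusted p = 0.0862, 0.00516 with the block). IER2 differed by -0.57 ± 0.26 in SK-BR-3 (adjusted p = 0.157, 0.0241 with the block). FOSL1 differed by 0.75 ± 0.27 in MCF-10A and 0.61 ± 0.27 in SK-BR-3 (adjusted p = 0.122 and 0.146; 0.0363 and 0.047 with the block). Of 11 tested genes of mitochondrial stress, often measured with GDF15 in mitochondrial disease, 0 rose and 2 fell in MCF-10A, the chaperonin genes HSPD1 (-0.48 ± 0.11, adjusted p = 0.0337) and HSPE1 (-0.65 ± 0.15, adjusted p = 0.0321), and 0 were called in SK-BR-3 by limma, edgeR or DESeq2 (1 higher and 2 lower at an unadjusted p under 0.05). DNAJA3, a mitochondrial chaperone gene, differed by -0.20 ± 0.09 in SK-BR-3 (adjusted p = 0.143, 0.0376 with the block), and PRDX3, TXN2 and YME1L1 were not called in either line. FGF21, the other circulating hormone of that response, was listed at 0 in all MCF-10A libraries and averaged at most 0.0169 FPKM in a group.

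The genes that process and receive GDF15 were compared next. FURIN, a convertase of the secretory pathway, averaged 47.7 ± 7.3 FPKM with DATS and 36.6 ± 7.99 FPKM with DMSO in MCF-10A, and 24.8 ± 4.69 FPKM with DATS and 22.2 ± 0.742 FPKM with DMSO in SK-BR-3, neither called (adjusted p = 0.175 and 0.607). FURIN was lower in SK-BR-3 than in MCF-10A with DMSO by -0.68 ± 0.16 (adjusted p = 0.00245). The convertases PCSK5, PCSK6 and PCSK7 averaged at most 0.258, 1.54 and 1.95 FPKM in a group. The receptor gene GFRAL was listed at 0 in all 12 libraries, and RET, which signals with it, did not exceed 0.0193 FPKM. MMP14, a membrane protease reported to cut GFRAL, rose in MCF-10A to 107, 122 and 114 FPKM with DATS, against 68.7, 75.4 and 90.8 FPKM with DMSO (0.55 ± 0.11, adjusted p = 0.0171), and was at most 0.179 FPKM in SK-BR-3. The MMP14 call was lost in 3 of the 12 fits that left out 1 library (adjusted p up to 0.0882), and edgeR and DESeq2 did not make it.

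Among 33 ligands of the TGF-beta superfamily, GDF15 was 2nd by mean FPKM in MCF-10A under both agents, after TGFB1, which averaged 28.4 ± 0.819 FPKM with DATS and 21.8 ± 2.12 FPKM with DMSO. In SK-BR-3 GDF15 was 3rd with DATS and 4th with DMSO, after INHBB (95.1 ± 4.44 FPKM with DATS and 90.2 ± 9.81 FPKM with DMSO) and BMP7 (72.4 ± 13.6 and 80.8 ± 15.9 FPKM), and with DMSO also after TGFB3. Its share of the summed ligand level was 35% with DATS and 15.3% with DMSO in MCF-10A, and 17.2% with DATS and 4.15% with DMSO in SK-BR-3. INHBB, BMP7 and BMP3 were at most 0.0748, 0.0553 and 0.0971 FPKM in MCF-10A, and TGFB1 was at most 0.728 FPKM in SK-BR-3. GDF15 was the only one of the 12 ligands with at least 1 FPKM in any group that averaged over 5 FPKM in all 4. At the lower limit of 1 FPKM TGFB2 was present in all 4 as well. It averaged 1.34 FPKM with DATS and 1.35 FPKM with DMSO in MCF-10A, and 8.02 and 4.09 FPKM in SK-BR-3.

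Of the 11 other ligands that were tested, 2 rose in MCF-10A and 3 rose and 1 fell in SK-BR-3. INHBA, the activin A subunit, rose in MCF-10A to 3.62, 3.95 and 3.03 FPKM with DATS, against 0.662, 1.07 and 1.38 FPKM with DMSO (1.16 ± 0.14, adjusted p = 0.00305), and differed by 0.37 ± 0.14 in SK-BR-3 at up to 0.598 FPKM (adjusted p = 0.0841). BMP2 rose in MCF-10A by 0.57 ± 0.13 (adjusted p = 0.0305). In SK-BR-3 TGFB2 rose by 0.80 ± 0.18 (adjusted p = 0.0117), GDF11 by 0.38 ± 0.09 (adjusted p = 0.0179) and TGFB1 by 0.38 ± 0.11 (adjusted p = 0.0395), the last at up to 0.728 FPKM and lost in 8 of the 12 fits that left out 1 library. TGFB3 fell in SK-BR-3 to 3.3, 6.64 and 8.01 FPKM with DATS, against 12.5, 20.2 and 21.3 FPKM with DMSO (-1.48 ± 0.25, adjusted p = 0.00312). In that line preparation 1 had the lowest TGFB3 and the highest GDF15 under both agents. AMH, INHA, INHBB, BMP3 and BMP7 were not called in either line.

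**Figure D4:**
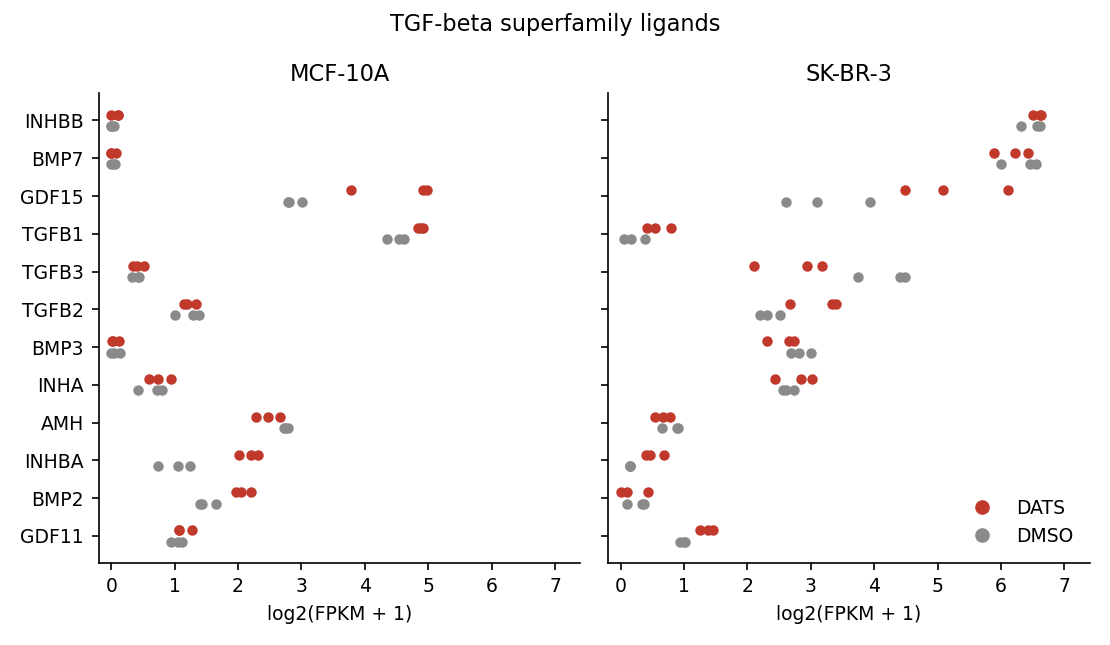
Level on the log2(FPKM + 1) scale of the 12 TGF-beta superfamily ligands that averaged at least 1 FPKM in any group, 1 point per library, DATS in red above DMSO in grey. GDF15 is present in both lines and its DATS and DMSO points do not overlap in either, while INHBB and BMP7 are high in SK-BR-3 and near 0 in MCF-10A.

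The annotated neighbours of GDF15 on chromosome 19 were compared next. Of the 8 tested neighbours, MIR3189 included, 0 were called in MCF-10A by limma, edgeR or DESeq2, with 1 higher at an unadjusted p under 0.05, and 1 fell in SK-BR-3. Without MCF-10A preparation 3 limma called 1 higher. PGPEP1, a peptidase gene that ends 4781 bases before GDF15, was at 1.90, 1.99 and 1.17 FPKM with DATS against 1.13, 1.18 and 1.03 FPKM with DMSO in MCF-10A (0.33 ± 0.12, adjusted p = 0.126), and was at about 0.36 FPKM in both SK-BR-3 groups. Its MCF-10A libraries with DATS had the same order as those of GDF15, with preparation 3 the lowest. LRRC25, 1968 bases beyond GDF15 and on the other strand, was listed at 0 in 11 of the 12 libraries. SSBP4, which encodes a single-stranded DNA binding protein, fell in SK-BR-3 by 0.26 ± 0.06 (adjusted p = 0.0183). JUND, an AP-1 subunit gene, LSM4, ISYNA1, ELL and FKBP8 had adjusted p of 0.109 or higher in both lines. The counting strand is not given in the sources used here, so reads of overlapping transcripts on the 2 strands could be merged.

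The genes whose pattern over the 12 libraries was most like that of GDF15 were picked by correlation, after the mean of each cell line was subtracted from log2(FPKM + 1), among 8290 genes with at least 5 FPKM on average in any group. CEBPB came first with r = 0.97, followed by ISG20 (0.97), ERRFI1 (0.97), AIFM2 (0.96), PROSER2 (0.96), RNF114 (0.95), SLC39A14 (0.95) and GABARAPL1 (0.95). ISG20 reached 5 FPKM only through SK-BR-3, where it averaged 11.7 FPKM with DATS and 7.21 FPKM with DMSO. In MCF-10A it was low, at 1.70 FPKM with DATS and 0.574 FPKM with DMSO on average. The points share the 2 agents and the preparations, so genes that differ between DATS and DMSO tend to correlate with GDF15; 76 genes reached 0.9, and the ranks within the top are close. ERRFI1, a feedback inhibitor of EGF receptors, was at 19.4, 20.0 and 14.7 FPKM with DATS against 10.3, 11.5 and 11.8 FPKM with DMSO in MCF-10A, and at 28.2, 21.6 and 18.4 FPKM with DATS against 19.2, 16.1 and 11.4 FPKM with DMSO in SK-BR-3. It shows the features of GDF15 in smaller measure: a low DATS library of preparation 3 in MCF-10A, and a first SK-BR-3 preparation that was high under both agents. AIFM2, which encodes the ferroptosis suppressor FSP1, was at 9.93, 10.2 and 9.13 FPKM with DATS against 7.31, 7.03 and 7.49 FPKM with DMSO in MCF-10A, and at 30.6, 23.5 and 21.8 FPKM with DATS against 17.4, 13.6 and 13 FPKM with DMSO in SK-BR-3. SLC39A14 encodes a zinc and iron importer, and GABARAPL1 an autophagosome protein. Within single lines (6 libraries each) CEBPB had r = 0.97 in MCF-10A and 0.98 in SK-BR-3, but ranked only 66th and 58th there, and 95th over all libraries without the subtraction of line means. Without the subtraction of line means only ERRFI1 stayed among the first 8. After CEBPB, the context genes that ranked highest were SQSTM1, which was 10th (0.95), FTL, 49th (0.92), and HMOX1, 52nd (0.91). Within MCF-10A alone they were 433rd, 558th and 850th, and within SK-BR-3 alone 34th, 36th and 73rd.

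**Figure D5:**
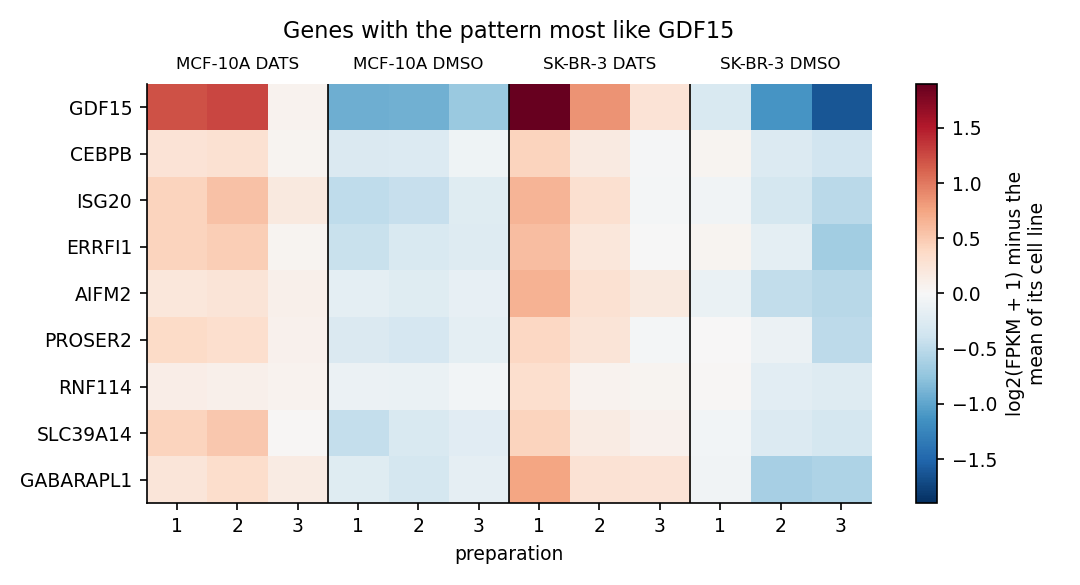
Log2(FPKM + 1) minus the mean of its cell line in each of the 12 libraries, for GDF15 and the 8 genes with the most similar pattern, with columns by group and preparation. Each gene is higher with DATS than DMSO within a preparation, the first SK-BR-3 DATS library is the highest of its line, and GDF15 has the widest range of them.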

How the data were processed

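Reads were aligned with STAR 2.6.1d on GRCh38 (hg38) and compared with DESeq2, per the submitters' processing notes. Which program counted reads, on which strand and with which annotation, is not given in the sources used here. For all 58735 genes the authors deposited FPKM. For genes at an unadjusted p under 0.05 they also deposited, per the file headers, read counts, a normalized signal (the count over 1 size factor per library), a log2 fold change and p-values. All gene identifiers matched GENCODE 29, and 6372 of 6372 deposited gene lengths equalled its merged exons. FPKM times length and effective library size gave whole reads for 704820 of 704820 values (tolerance 1e-06 read), which gave depth, intervals and reads for the count tests.

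The 13194 genes that reached 1 FPKM in 3 or more libraries were fitted as log2(FPKM + 1) by limma 3.58.1 (R 4.3.3), with trended variances and a mean for each of the 4 groups; the fit was tested on simulated data first. This scale understates changes of low genes. edgeR 4.0.16 and DESeq2 1.42.0 on recovered reads were alternatives, with pseudocount 0.1, no filter, quantile normalization, rescaling, 1 line alone, a replicate block, and omission of each library or of MCF-10A preparation 3. Replicate numbers come from the labels and were taken as pairing because deviations from group means correlated within every number (0.21, 0.19 and 0.33 in MCF-10A, 0.39, 0.24 and 0.25 in SK-BR-3). GDF15 and all gene lists were chosen with earlier results of these data known. Some results are not reported here; otherwise the text names every regulator, processing gene and neighbour, ligands with at least 1 FPKM, up to 4 members of each other list with the largest changes per line, and the 8 genes most like GDF15.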

Additional observations from a re-analysis of the deposited data

Results flagged for a closer look

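Of the context genes named, 6 had a response to DATS that differed between the cell lines. This was by the interaction term of limma without the block (adjusted p under 0.05). With the block, further calls included SLC7A11, PHGDH, HERPUD1 and EIF2AK2 (adjusted p = 0.0302, 0.0298, 0.0166 and 0.0403). The GDF15 responses are given above as a description. The log2 responses were larger in SK-BR-3 than in MCF-10A by 1.02 for GCLM, 0.79 for TXNRD1, 0.77 for SLC3A2 and 0.48 for NFE2L2. The GCLM call held in all 12 fits that left out 1 library, whereas that of TXNRD1 was lost in 7, that of SLC3A2 in 9 and that of NFE2L2 in 11. The TGFB3 response was -1.51 in SK-BR-3 relative to MCF-10A, where the gene was at most 0.427 FPKM, and that of INHBA was -0.80 relative to MCF-10A, with INHBA at most 0.598 FPKM in SK-BR-3. These calls were lost in 7 and 9 of the 12 fits, and edgeR made neither (adjusted p = 0.0718 for TGFB3 and 0.873 for INHBA). DESeq2 called TGFB3 (adjusted p = 0.00425) and not INHBA (adjusted p = 0.835). The INHBA difference changed sign with both tools, so its direction depends on the fit used. With pseudocount 0.1 limma gave -0.39 for INHBA and did not call it (adjusted p = 0.6).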

How the results depend on the processing

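The GDF15 difference between DATS and DMSO stayed positive under all 21 alternatives in each line, at 1.48 to 2.16 in MCF-10A and 1.57 to 2.38 in SK-BR-3; leaving out single libraries gave 1.48 to 2.09 and 1.57 to 2.38. The difference of the responses was positive under 17 of 20, between -0.15 and 0.69 (-0.13 to 0.69 with single libraries left out), and that between the lines with DMSO under 18 of 19, between -0.01 and 0.66.

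Of 160 tested context genes, 22 were called in MCF-10A. This became 10 with no filter, 11 after rescaling all libraries to the same total, 34 with DESeq2, 50 with the replicate block, 0 in 1 cell line alone, and 3 to 39 without single libraries. In SK-BR-3 35 were called, 57 with the replicate block, 21 in 1 cell line alone, and 25 to 42 without single libraries. For the difference of the responses 13 were called, against 6 with pseudocount 0.1, 3 with no filter, 3 after rescaling, 8 with edgeR, 26 with DESeq2, 31 with the replicate block, and 2 to 21 without single libraries. Between the lines with DMSO 120 were called, 110 to 119 without single libraries. No replicate block or single-line fit was run for comparisons between the lines with DMSO, since the blocks lie within lines. Calls that survived every single omission numbered 3 of 22 in MCF-10A, 20 of 35 in SK-BR-3 and 2 of 13 for the difference of the responses. The difference of the INHBA responses was -0.80 with limma on log2(FPKM + 1) and -0.39 with pseudocount 0.1. It was 0.18 with edgeR and 0.22 with DESeq2. INHBA averaged 3.53 FPKM with DATS and 1.04 FPKM with DMSO in MCF-10A. In SK-BR-3 it averaged 0.430 FPKM with DATS and 0.106 FPKM with DMSO, and the log2(FPKM + 1) scale understates changes of low genes. The part of the scale in the INHBA difference was not tested. With 172 to 2270 reads of GDF15 per library, counting error is small beside the spread between preparations, except in MCF-10A with DMSO. There the Poisson intervals of all preparations overlap. In MCF-10A with DATS those of preparations 1 and 2 overlap, and that of preparation 3 lies apart.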
